A study of Mus musculus with 10 samples.

Results

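The genes described here encode the nuclear subunits of the mitochondrial respiratory chain and ATP synthase, measured in mouse jejunum with and without intestinal Pcyt1a. Members were chosen by symbol: names that begin with Nduf and a subunit letter, Sdha to Sdhd, Uqcr, Cox4 to Cox8 with an isoform letter, and Atp5. A probe set counted when it carried exactly 1 gene symbol, and the brightest stood for a gene with several. This gave 78 members among 22180 genes tested: 31 in complex I, 4 in complex II, 8 in complex III, 17 in complex IV and 18 in complex V. Of the members, 9 had several probe sets, and 2 are pseudogenes (Uqcrh-ps1 and Atp5c1-ps). A further 9 matching symbols, Cox6c, Ndufb2, Ndufb4, Ndufb4b, Ndufb4c, Ndufs5-ps, Ndufs6, Ndufs6b and Uqcr10, occurred only on probe sets with several symbols and were not members.

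Total RNA of jejunum was hybridised to Affymetrix arrays, with 5 knockout and 5 control arrays, 1 for each sample. Knockout mice were Pcyt1aLoxP/LoxP;VilCreERT2, in which a villin promoter drives a tamoxifen-inducible Cre recombinase in the intestinal epithelium, and control mice were Pcyt1aLoxP/LoxP without Cre. Both groups were female mice of 10 to 12 weeks that had 5 days of tamoxifen and, before an overnight fast, 4 days on a high fat diet. The series text speaks of re-feeding where the sample labels say fasted, and the source label of the controls carries the knockouts' wording, so groups follow the titles and genotypes. Whole pieces of gut wall were taken, so other cell layers keep Pcyt1a, and in such bulk tissue fewer cells of a type and less RNA per cell cannot be told apart. Nothing in the labels says that the 5 samples of a group came from separate mice, and p-values measure only the spread between these samples, which may be technical. No batch or date is given.

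Pcyt1a encodes the regulated enzyme of the CDP-choline route to phosphatidylcholine, a main lipid of mitochondrial membranes. Its log2 intensity was 7.14, 7.80, 7.30, 7.54 and 7.53 on knockout arrays 1 to 5 and 9.55, 9.25, 9.50, 9.18 and 9.48 on control arrays 6 to 10. The groups lay far apart, by a log2 fold change of -1.93 (SE 0.129, adjusted p = 9.58e-05 in limma), or 0.262 of the control level. Enterocyte markers overlapped between the groups, with a mean log2 level of the 12 marker genes of 12.71 to 12.93 in knockouts and 12.78 to 12.93 in controls. Other markers differed: the 13 measured cell cycle genes were all higher in the knockouts, with a mean level of 7.60 to 8.54 against 6.81 to 7.65, and endothelial markers stood at 6.72 to 7.69 against 5.64 to 6.83. The mean level of 9 enteroendocrine markers was lower, at 7.17 to 7.49 against 7.66 to 7.74 with no overlap, and 8 of the 9 were lower. The differences were uneven. Sst, somatostatin, fell by 1.202 (adjusted p = 0.000348 in limma), and Gip differed by -0.822 (adjusted p = 0.0728 in limma). Chga differed by only -0.104, Isl1 by -0.002 and Neurod1 by 0.026. Of 8 goblet cell markers, 6 were lower, 4 of them at an unadjusted p under 0.05, where 5.56% of all genes were lower. The other 2, Spink4 and Agr2, differed by 0.430 and 0.144. The part of these markers in the results on the subunit genes was not tested. Fits with the cell cycle score as a covariate are given below. That score differed between the groups with almost no overlap, so these fits cannot separate it from the genotype. Smooth muscle markers varied mostly within groups, from 6.83 to 8.44 in knockouts and from 6.44 to 10.64 in controls.

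The respiratory chain sits in the inner mitochondrial membrane. Complex I takes electrons from NADH and complex II from succinate, ubiquinone carries them to complex III, cytochrome c carries them on to complex IV, and complexes I, III and IV pump protons that ATP synthase, complex V, uses to make ATP. Most subunits are encoded in the nucleus and a few hydrophobic ones in mitochondrial DNA, and absorptive enterocytes are rich in mitochondria. Values below are log2 RMA intensities, and a difference is the knockout mean minus the control mean; intensities of different probe sets are not compared with each other.

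None of the 78 subunit genes passed the test for a change. With limma and Benjamini-Hochberg adjustment over all genes, 0 members had an adjusted p under 0.05, where 6 of all genes did, 0.0271% (0.00451% higher and 0.0225% lower in the knockouts). The smallest adjusted p of a member was 0.111. At an unadjusted p under 0.05 there were 5 members, 6.41% (4 higher and 1 lower in the knockouts), beside 13.9% of all genes (8.29% higher and 5.56% lower). The 5 and 5 values did not overlap for 5 members, also 6.41% (4 with the knockouts higher and 1 lower), beside 2.6% of all genes (1.64% higher and 0.965% lower).

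The differences were small and their intervals narrow. The median member differed by 0.051, with the middle of the distribution from -0.046 to 0.099, where all genes had a median of -0.014 and ran from -0.128 to 0.106. Members ran from -0.674 for Uqcrh-ps1 to 0.348 for Ndufb6. The median SE of a member was 0.091, against 0.120 over all genes. For 70 of the 78 members, 89.7%, the 95% interval of the difference lay within 0.5 of 0, which is a change of 1.41-fold either way; that held for 71.3% of all genes. The 8 whose interval reached further were Ndufb6, Ndufa10, Ndufs8, Ndufa1, Ndufb11, Cox7b2 and the pseudogenes Uqcrh-ps1 and Atp5c1-ps. More members were higher than lower in the knockouts, 48 against 30, or 61.5%, where 46.8% of all genes were higher. The share of higher genes increased with brightness over the whole array: among genes with a mean log2 intensity of at least 6 it was 57.4%, and among the 70 members of that brightness it was 62.9%. The median difference was 0.034 among all genes of that brightness and 0.054 among these members. Groups without overlap made up 3.86% and 5.71%.

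**Figure D1:**
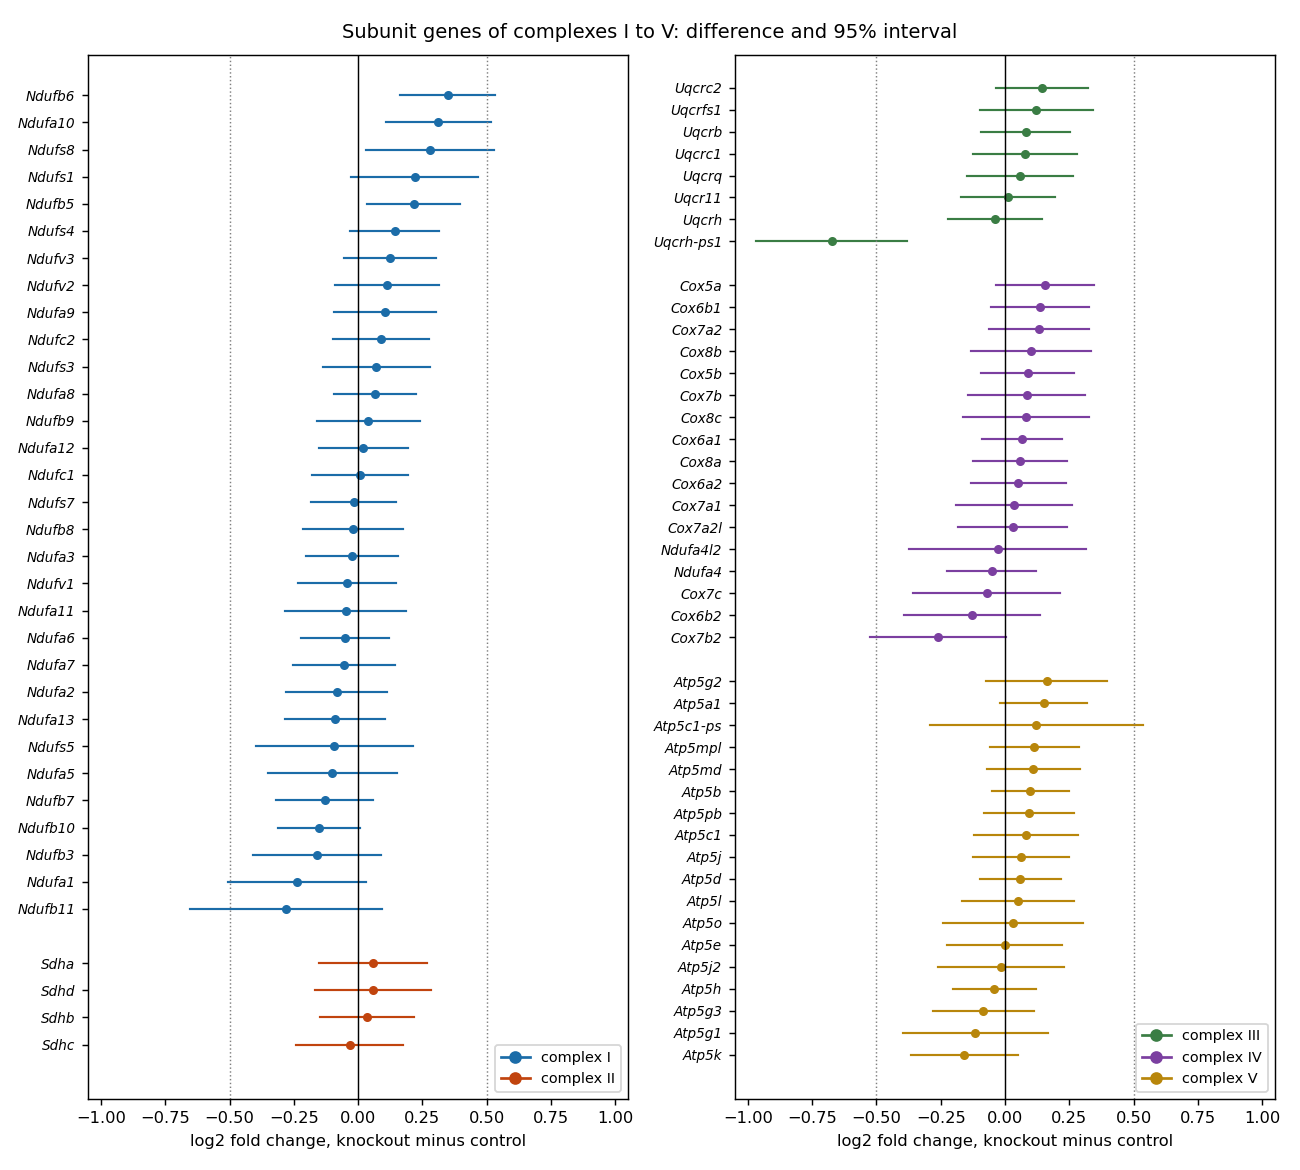
Log2 fold change, knockout minus control, of each of the 78 subunit genes with its 95% interval from limma (5 arrays against 5), coloured by complex. The dotted lines mark 0.5 either way; 70 intervals lie between them, and the member farthest from 0 is Uqcrh-ps1 at -0.674.

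In complex I, 15 of 31 subunits were higher and the median was -0.018, with a range of -0.280 to 0.348. Complex II had 3 of 4 higher and a median of 0.047. Complex III had 6 of 8 higher and a median of 0.068, or 0.076 over its 7 members other than the pseudogene. Complex IV had 12 of 17 higher and a median of 0.058, and complex V had 12 of 18 higher and a median of 0.061. No difference between complexes was tested. Subunits at an unadjusted p under 0.05 numbered 4 of 31 in complex I, 12.9%, a share near the 13.9% of all genes. There was 1 in complex III (the pseudogene) and there were 0 in complexes II, IV and V.

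Complex I, NADH dehydrogenase, has a matrix arm that holds flavin and the iron-sulphur clusters and a membrane arm that pumps protons. The 14 matrix arm members had a median of 0.045, with 8 higher, and the 17 membrane arm members a median of -0.024, with 7 higher. Core subunits, which carry out catalysis and are conserved in bacteria, had a median of 0.091 over 6 members, and accessory subunits -0.024 over 25. Of the core subunits with known redox roles, Ndufv1, the flavin-binding subunit, differed by -0.042 (SE 0.088), and Ndufs1, which holds several iron-sulphur clusters, by 0.220 (SE 0.113, adjusted p = 0.416 in limma). With the cell cycle score as a covariate Ndufv1 was at -0.065 and Ndufs1 at 0.327.

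The complex I members with the smallest p were accessory subunits. Ndufb6, a membrane arm subunit, was 8.11, 8.04, 8.01, 8.13 and 7.89 on knockout arrays 1 to 5 and 7.78, 7.54, 7.70, 7.79 and 7.63 on control arrays 6 to 10. Every knockout value lay above every control value. The means were 8.04 ± 0.10 and 7.69 ± 0.11 (SD, n = 5 each), a difference of 0.348 (SE 0.084, 95% interval 0.164 to 0.532), which did not pass adjustment over all genes (adjusted p = 0.130 in limma).

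Ndufa10, an accessory subunit of the membrane arm, was 10.47, 10.45, 10.55, 10.58 and 10.35 in the knockouts and 10.15, 10.20, 10.31, 10.27 and 9.91 in the controls. The groups again did not overlap, and control 10 was the lowest array. The difference was 0.312 (SE 0.094, 95% interval 0.108 to 0.516, adjusted p = 0.189 in limma).

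Ndufb5, also of the membrane arm, was 8.33, 8.40, 8.30, 8.49 and 8.34 in the knockouts and 8.01, 8.19, 8.21, 8.29 and 8.08 in the controls. Knockout 3, the lowest of its group, lay only just above control 9, the highest of the controls. The difference was 0.216 (SE 0.082, adjusted p = 0.273 in limma).

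Ndufs8, a core subunit with iron-sulphur clusters on the path to ubiquinone, was 9.66, 9.55, 9.77, 9.80 and 9.50 in the knockouts and 9.13, 9.46, 9.40, 9.68 and 9.21 in the controls. Control 9 reached into the knockout range. The difference was 0.280 (SE 0.114, adjusted p = 0.303 in limma), and it was 0.030 in a fit with the cell cycle score as a covariate. Ndufb6, by contrast, kept at least 0.300 in all 22 alternatives run.

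Outside the pseudogenes, the lowest difference of a member was also in complex I. Ndufb11, a membrane arm subunit, was 5.64, 5.64, 6.48, 6.30 and 6.24 in the knockouts and 6.47, 6.21, 6.28, 6.58 and 6.16 in the controls. Knockouts 1 and 2 lay below all other arrays while the other 3 lay among the controls, and the difference of -0.280 (SE 0.172, adjusted p = 0.501 in limma) is within the spread. Ndufa1, a small membrane arm subunit encoded on the X chromosome, differed by -0.238 (95% interval -0.507 to 0.031, adjusted p = 0.420 in limma), and by 0.094 with the cell cycle score as a covariate, so its sign is not settled.

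**Figure D2:**
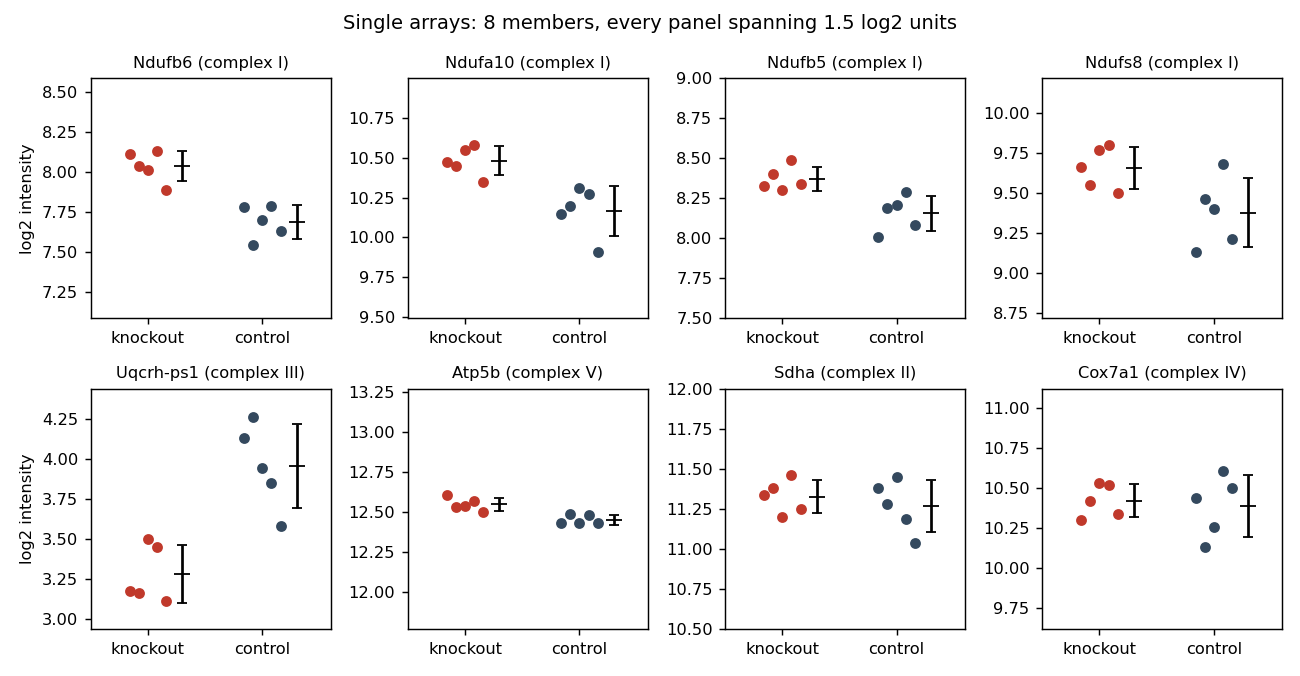
Log2 intensity on each of the 5 knockout and 5 control arrays for 8 members, each panel spanning 1.5 log2 units, with the mean and SD beside the points. Ndufb6, Ndufa10, Ndufb5, Uqcrh-ps1 and Atp5b do not overlap between groups, while Ndufs8, Sdha and Cox7a1 do.

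Complex II, succinate dehydrogenase, is shared with the tricarboxylic acid cycle and is encoded wholly in the nucleus. Sdha, its flavoprotein, was 11.34, 11.38, 11.20, 11.46 and 11.25 in the knockouts and 11.38, 11.28, 11.45, 11.19 and 11.04 in the controls. The groups overlapped throughout, with a difference of 0.058 (95% interval -0.152 to 0.268). Sdhb, the iron-sulphur subunit, differed by 0.036 (95% interval -0.147 to 0.219). Of the membrane anchors, Sdhc differed by -0.032 and Sdhd by 0.058. All 4 intervals lay within 0.5 of 0.

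Complex III, the cytochrome bc1 complex, passes electrons from ubiquinol to cytochrome c. Its measured core subunits were Uqcrc2 at 0.142 (SE 0.082), the Rieske iron-sulphur protein Uqcrfs1 at 0.122 (SE 0.100) and Uqcrc1 at 0.076 (SE 0.093). With the cell cycle covariate Uqcrc2 was at 0.087, Uqcrfs1 at 0.209 and Uqcrc1 at 0.250. The lowest adjusted p among the 7 members other than the pseudogene was 0.473 in limma, and all 7 intervals lay within 0.5 of 0. Cyc1, the cytochrome c1 gene of the same complex, is outside the symbol rule. It was 9.56, 9.56, 9.62, 9.67 and 9.41 in the knockouts and 9.39, 9.34, 9.36, 9.31 and 9.36 in the controls. Its groups did not overlap, with a difference of 0.212 (SE 0.076, adjusted p = 0.246 in limma).

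The member with the smallest p of all was Uqcrh-ps1, a pseudogene of the hinge protein gene Uqcrh. It was 3.17, 3.16, 3.50, 3.45 and 3.11 in the knockouts and 4.13, 4.26, 3.94, 3.85 and 3.58 in the controls. Every knockout value was below every control value, with a difference of -0.674 (SE 0.134, 95% interval -0.967 to -0.381, adjusted p = 0.111 in limma). It is a dim probe set, 1 of 6 members with a mean under 5, and no detection values were used here, so its level may be near background. Uqcrh itself differed by -0.040 (SE 0.083). A pseudogene can share sequence with its parent gene, so which transcript the probe set reads is uncertain.

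Complex IV, cytochrome c oxidase, reduces oxygen, and several of its nuclear subunits exist as tissue isoforms. The 9 commonly expressed subunits had a median of 0.084, with 7 higher, and a range of -0.072 to 0.156. Cox5a had the highest value, 0.156 (SE 0.087, adjusted p = 0.459 in limma), followed by Cox6b1 at 0.136 (SE 0.088) and Cox7a2 at 0.132 (SE 0.089). Cox6a1 differed by 0.066, Cox7b by 0.084 and Cox8a by 0.058, each with an interval that includes 0. Ndufa4, named for complex I and counted here with complex IV, where the protein is now placed, differed by -0.052 (SE 0.079). Cox4i1 and Cox4i2, the common and the lung isoform of subunit 4, escape the symbol rule and differed by -0.084 (SE 0.081) and -0.220 (SE 0.133).

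The 7 tissue isoforms had a median of 0.034. Cox7a1, the heart and skeletal muscle form of subunit 7a, was 10.30, 10.42, 10.53, 10.52 and 10.34 in the knockouts and 10.44, 10.13, 10.26, 10.61 and 10.50 in the controls. The groups overlapped and differed by 0.034 (SE 0.104). Its lowest value was on control 7, the array with the highest smooth muscle score, and its highest on control 9, the array next in that score. Cox6a2, the striated muscle form of subunit 6a, differed by 0.052 (SE 0.084) and Cox8b, its counterpart in subunit 8, by 0.100 (SE 0.107). The testis forms Cox6b2, Cox7b2 and Cox8c differed by -0.130 (SE 0.121), -0.260 (SE 0.121) and 0.082 (SE 0.113). Ndufa4l2, a hypoxia-induced paralog of Ndufa4, differed by -0.028 (SE 0.158). Cox7a2l, which helps to join complexes III and IV into supercomplexes, differed by 0.030 (SE 0.097). Of these isoforms Cox7b2, Cox8b, Cox8c and Ndufa4l2 had means under 5.

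Complex V, ATP synthase, couples a rotating c ring in the membrane to a catalytic F1 head, held still by a peripheral stalk. The 5 members of the head and central stalk had a median of 0.080, with 4 higher, the 4 of the peripheral stalk a median of 0.047, and 5 other membrane subunits a median of 0.050. Atp5b, the catalytic beta subunit, was 12.61, 12.53, 12.54, 12.57 and 12.50 in the knockouts and 12.43, 12.49, 12.43, 12.48 and 12.43 in the controls. The groups did not overlap, but the difference was only 0.098 (SE 0.069, 95% interval -0.052 to 0.248, adjusted p = 0.564 in limma). Atp5a1, the alpha subunit, differed by 0.150 (SE 0.078, adjusted p = 0.422 in limma). With the cell cycle covariate Atp5b was at 0.057 and Atp5a1 at 0.215.

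The c subunit, which makes up the ring, is encoded by 3 genes for the same mature protein. They were Atp5g1 at -0.116 (SE 0.130), Atp5g2 at 0.162 (SE 0.108) and Atp5g3 at -0.084 (SE 0.089). With the cell cycle covariate all 3 signs turned, to 0.033, -0.115 and 0.021. All 3 intervals include 0 and lay within 0.5 of it, and the difference between the genes was not tested. Atp5k, the e subunit, had the lowest value of the complex, -0.158 (95% interval -0.367 to 0.051).

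Where a member had more than 1 probe set, the other probe set gave a check within the array. In 8 of 9 such members the brightest and a second probe set differed between groups with the same sign. Both probe sets of Atp5g2 gave 0.162. For Cox7b the second gave 0.340 where the brightest gave 0.084. Ndufa8, an accessory subunit of complex I, was the exception, at 0.066 and -0.088. The 10 matching probe sets with several symbols differed by -0.138 to 0.180. Paralogs and pseudogenes of these short genes are many, so single probe sets may read more than 1 transcript.

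The members moved together from array to array more than between the groups. After each gene was centred on its mean over the 10 arrays, the 78 members had a median of 0.123 on knockout 4, of -0.117 on control 10, and of -0.031 to 0.031 elsewhere. The median of all genes was 0.005 and 0.006 on these 2 arrays. Knockout 4 was the highest array for 30 of 78 members, 38.5%, where it was highest for 6.7% of all genes. Control 10 was the lowest for 28, or 35.9%, against 9.51% of all genes. All 5 complexes took part: their medians were 0.094 to 0.174 on knockout 4 and -0.214 to -0.085 on control 10. In complex IV other arrays came near, at 0.086 on knockout 3 and -0.076 on knockout 1. The complex II median was 0.126 on control 8. Complexes II and III reached -0.214 and -0.139 on control 10.

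Over arrays, the members' centred median was 0.015 ± 0.063 in the knockouts and -0.019 ± 0.058 in the controls (SD, n = 5 each), so the difference between groups is smaller than the spread within them. Without knockout 4 and control 10, an alternative chosen after seeing the data, the members' median difference was -0.013 with 38 of 78 higher, and the complex medians were -0.060, -0.040, 0.012, 0.037 and 0.017 for complexes I to V. It was 0.014 without knockout 4 alone and 0.020 without control 10 alone. These arrays were picked as the highest and the lowest for the same members, which by itself lowers the median; 43 and 44 of 78 were higher with knockout 4 or control 10 left out singly. The mitochondrially encoded genes, read near the top of the scale, did not share the pattern, with a centred median of -0.016 on knockout 4 and 0.006 on control 10. Other nuclear lists were also high on knockout 4 and low on control 10, but these arrays often did not stand apart from the rest. Tricarboxylic acid cycle enzymes stood at 0.165 and -0.131, with 0.158 on knockout 2 and -0.102 on control 7. Complex I assembly factors stood at 0.181 and -0.159, with 0.169 on knockout 3 and a lower value, -0.175, on control 6. Complex IV assembly factors were at 0.164 and -0.184, with -0.117 on control 7. Ubiquinone synthesis genes were at 0.147 and -0.115, with -0.100 on control 7. Assembly factors of ATP synthase stood at 0.157 and 0.026, without the low value on control 10.

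**Figure D3:**
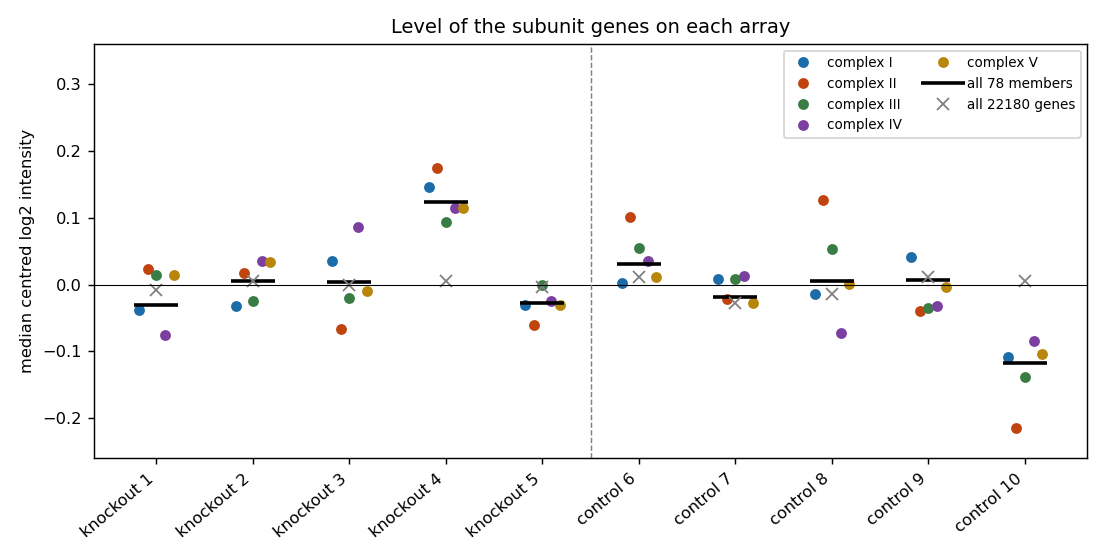
Median centred log2 intensity on each array of the members of each complex (coloured points), of all 78 members (black bars) and of all 22180 genes (grey crosses). Knockout 4 at 0.123 and control 10 at -0.117 stand apart for the members while all genes stay near 0.

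The genes encoded in mitochondrial DNA varied little. Of 13, 10 could be read from probe sets with 1 symbol, 2 of them higher, and their differences ran from -0.134 to 0.028 with a median of -0.021. None reached an unadjusted p under 0.05, and all 10 intervals lay within 0.5 of 0. ND6, the one complex I subunit encoded on the light strand, differed most, by -0.134 (SE 0.102, adjusted p = 0.597 in limma). COX1, the catalytic subunit of complex IV, differed by -0.028 (SE 0.073), ND2 by -0.066 (SE 0.077) and ND4L by 0.028 (SE 0.079). These intensities, with means of 11.12 to 13.81, are close to the top of the scale, where arrays compress differences. Among the 10 subunits and carriers outside the symbol rule the median was -0.027, with 4 higher, and Slc25a5, an ADP/ATP carrier of the inner membrane, differed by 0.112 (SE 0.073).

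The assembly factors, which insert cofactors or join subunits but are not part of the finished complexes, are listed here beside the subunits. The complex IV list also holds Lrpprc, which acts on messenger RNAs. No difference between the lists was tested, and 0 of the genes in them had an adjusted p under 0.05 in limma. Of 16 complex I assembly factors, 14 were higher, the median was 0.183, and 7 (43.8%) had an unadjusted p under 0.05, all higher. At that p 8.29% of all genes were higher. Brighter genes were higher more often: 1700 of 14932 with a mean of at least 5, and 1498 of 10336 with at least 6. All 16 factors had a mean of at least 5. Foxred1 was 7.51, 7.29, 7.37, 7.49 and 7.17 in the knockouts and 7.08, 7.03, 7.17, 7.10 and 6.92 in the controls. Knockout 5 met the highest control, and the difference was 0.306 (SE 0.091, adjusted p = 0.186 in limma). Ndufaf6 differed by 0.350 (SE 0.116), Ndufaf4 by 0.320 (SE 0.106) and Acad9 by 0.250 (SE 0.090). With the cell cycle score as a covariate these were 0.230 for Foxred1, 0.118 for Ndufaf6, 0.164 for Ndufaf4 and 0.127 for Acad9. The count of 7 was 4 without knockout 1, without knockout 3, without control 6, or without the 3 arrays richest in smooth muscle signal (knockout 1, control 7 and control 9). It was 3 without knockout 4 and control 10, 1 with the covariate, and 9, its highest, without knockout 2.

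Of 19 complex IV assembly factors, 15 were higher, the median was 0.106, and 7 (36.8%) had an unadjusted p under 0.05, again all higher. These 7 include Lrpprc. At that p 8.29% of all genes were higher, as were 1498 of the 10336 genes with a mean of at least 6. All 19 factors had a mean of at least 6. Cox15, which makes heme a, was 8.33, 8.29, 8.39, 8.42 and 8.31 in the knockouts and 8.12, 8.00, 8.14, 8.05 and 7.93 in the controls, with no overlap and a difference of 0.300 (SE 0.076, adjusted p = 0.146 in limma). Cox10, which acts in the preceding step, differed by 0.296. Cox18, an inner membrane insertase for the COX2 protein, was 7.31, 7.08, 7.62, 7.37 and 7.18 in the knockouts and 6.54, 6.95, 6.92, 7.03 and 6.68 in the controls. Its groups did not overlap either, at 0.488 (SE 0.125, adjusted p = 0.147 in limma). Lrpprc, which stabilises mitochondrial messenger RNAs, differed by 0.462 (SE 0.131, adjusted p = 0.177 in limma); its adjusted p was 0.0454 without knockout 2, where 452 of all genes were called, and its difference was 0.050 (adjusted p = 0.934) with the cell cycle score as a covariate. Under that covariate Cox18 was at 0.149, Cox10 at 0.178 and Cox15 at 0.305. The count of 7 was 4 without control 7, without knockout 4 and control 10, without the 3 smooth muscle-rich arrays, or with the cell cycle covariate. Assembly factors of complexes II and III had a median of 0.075 over 10, led by Sdhaf1 at 0.286 (SE 0.125; -0.104 with the cell cycle covariate), and the 3 of ATP synthase a median of 0.148.

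Other genes of mitochondrial energy metabolism also held no gene with an adjusted p under 0.05 in limma. Of 13 tricarboxylic acid cycle enzymes 12 were higher, with a median of 0.150. Of them 4 (30.8%) had an unadjusted p under 0.05, all higher, beside 8.29% of all genes and 1498 of the 10336 genes with a mean of at least 6. Suclg2, the GTP-forming succinyl-CoA synthetase subunit, was 10.24, 9.92, 10.15, 10.13 and 9.99 in the knockouts and 9.35, 9.81, 9.79, 9.77 and 9.76 in the controls. The groups did not overlap, at 0.390 (SE 0.108, adjusted p = 0.170 in limma). The difference was 0.072 with the cell cycle covariate and 0.192 as the mean of all its probe sets. Idh3b and Idh3a, subunits of the NAD-linked isocitrate dehydrogenase, differed by 0.254 (SE 0.091) and 0.240 (SE 0.098), and Fh1, fumarase, by 0.206 (SE 0.089). With the covariate Idh3b was at 0.129, Idh3a at 0.199 and Fh1 at 0.136. The count of 4 was 2 without knockout 1, knockout 4, control 6 or control 10, each left out singly, and 5 without control 8. It was 1 when the 3 arrays with the most smooth muscle signal, or knockout 4 and control 10, were dropped together.

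Ubiquinone synthesis gave 8 of 12 higher and a median of 0.059. Coq5, a methyltransferase of that route, differed by 0.470 (SE 0.146, adjusted p = 0.197 in limma) and Pdss2 by 0.282 (SE 0.098). Coq10a differed by -0.264 (SE 0.114) and Coq7 by 0.180 (SE 0.080). With the cell cycle covariate Coq5 was at 0.242, Pdss2 at 0.441, Coq10a at -0.036 and Coq7 at 0.241. Cardiolipin, the signature phospholipid of the inner membrane, binds to the respiratory complexes. The list of its synthesis and remodelling genes also includes Stard7, a phosphatidylcholine carrier. These 12 genes had a median of 0.141 with 8 higher. Of them 4 (33.3%) had an unadjusted p under 0.05, all higher, beside 8.29% of all genes and 1498 of the 10336 genes with a mean of at least 6. The count of 4, which includes Stard7, was 1 with the cell cycle covariate and at most 5 under the other alternatives. Crls1, cardiolipin synthase, differed by 0.430 (SE 0.112, adjusted p = 0.149 in limma) and Stard7, which carries phosphatidylcholine to mitochondria, by 0.360 (SE 0.110). Tamm41 differed by 0.318 (SE 0.106) and Ptpmt1 by 0.236 (SE 0.087). With the covariate Crls1 was at 0.159, Stard7 at 0.098, Tamm41 at 0.090 and Ptpmt1 at 0.261. Among 19 regulators of mitochondrial biogenesis 14 were higher, with a median of 0.062. Tfb2m, a mitochondrial transcription factor, differed by 0.380 (SE 0.109), and Twnk by 0.334 (SE 0.106) with no overlap between the groups. Ppargc1a, a coactivator of the nuclear genes, differed by -0.350 (SE 0.132, adjusted p = 0.268 in limma) and Tfam by 0.216 (SE 0.101). With the covariate Tfb2m was at 0.102, Twnk at 0.105, Ppargc1a at 0.043 and Tfam at 0.063, and Tfb2m was at 0.196 as the mean of its probe sets. The cell cycle genes moved with the groups beside all these lists, with a median of 0.812 and 13 of 13 at an unadjusted p under 0.05. With their score as a covariate the SE of Ndufb6 rose from 0.084 to 0.129. The share of all genes at an unadjusted limma p under 0.05 fell from 13.9% to 8.76%. Smaller values and counts under that covariate therefore do not show the part of the cell cycle genes, which was not tested.

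**Figure D4:**
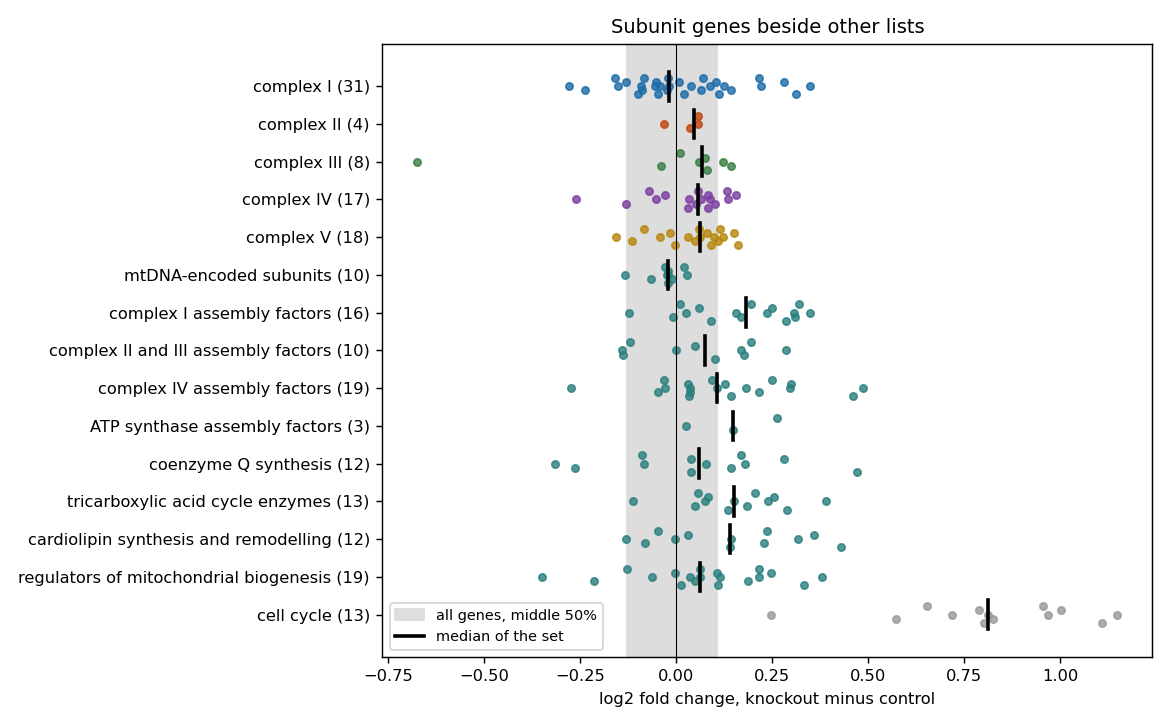
Log2 fold change, knockout minus control, of each gene in complexes I to V and in the other lists, with the number of genes in brackets, black bars at the medians and grey shading over the middle of all genes (-0.128 to 0.106). The complex medians lie between -0.018 and 0.068, those of the 4 assembly factor lists between 0.075 and 0.183, and that of the cell cycle genes at 0.812.

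Nuclear respiratory genes are known for promoters that bind NRF1 and the ETS factor GABP, so the members' promoter letters are shown beside their values. RefSeq promoter windows of GRCm38.p6 were matched for 64 of the 78 members, and the 250 bases before each start were searched on both strands. Hits of the NRF1, ETS, YY1 and nuclear receptor letters had 0 overlaps with each other. Overlaps with CCAAT or the GC box were not checked. The palindromic core of the NRF1 consensus, shown in capitals in the stretches printed next, was found in 4 of 64 members, 6.25%, and in 0.877% of all 27025 genes with a window. The ETS letters CCGGAAG were found in 12, 18.8%, against 7.83%. YY1 letters AAGATGGCG were in 1 member, 1.56% against 0.71%, and the nuclear receptor letters AAGGTCA in 3, 4.69% against 4.7%. CCAAT was in 26, 40.6% against 37.5%, and the GC box GGGCGG in 24, 37.5% against 35.4%. A match is a description of letters, not of binding.

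The 4 members with the NRF1 letters lie in complexes I, IV and V. Their stretches of 60 bases are printed 5′ to 3′ on the gene's strand with the NRF1 letters in capitals: Ndufa11 at chr17:56717677-56717736 on the plus strand, Cox6a1 at chr5:115349086-115349145, Atp5g2 at chr15:102671055-102671114 and Atp5k at chr5:108434415-108434474, the last 3 on the minus strand.
Ndufa11: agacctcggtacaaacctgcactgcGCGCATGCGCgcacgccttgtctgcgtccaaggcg
Cox6a1: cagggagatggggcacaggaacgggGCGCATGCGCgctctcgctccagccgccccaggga
Atp5g2: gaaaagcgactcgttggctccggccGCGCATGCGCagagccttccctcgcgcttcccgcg
Atp5k: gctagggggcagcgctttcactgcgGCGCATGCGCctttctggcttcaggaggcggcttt
The letters begin 60 bases before the start of Ndufa11, 162 before Cox6a1, 42 before Atp5g2 and 50 before Atp5k. The genes behind these 4 identical motifs differed between groups by -0.048 (SE 0.108), 0.066 (SE 0.071), 0.162 (SE 0.108) and -0.158 (SE 0.096), in both directions and each with an interval that includes 0. Nrf1 itself differed by 0.012 (SE 0.077), and Gabpa, the DNA-binding subunit of GABP, by 0.036 (SE 0.101), named here because of these letters.

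The windows of Ndufb6 and Ndufa10, the complex I members with the smallest p, are printed whole because no other subunit gene, pseudogenes left out, differed by as much. Ndufb6 lies on the minus strand at chr4:40279422-40279671 and Ndufa10 on the minus strand at chr1:92473759-92474008. Capitals mark the ETS letters, which in Ndufb6 stand on the opposite strand, 232 to 226 bases before the start.
Ndufb6: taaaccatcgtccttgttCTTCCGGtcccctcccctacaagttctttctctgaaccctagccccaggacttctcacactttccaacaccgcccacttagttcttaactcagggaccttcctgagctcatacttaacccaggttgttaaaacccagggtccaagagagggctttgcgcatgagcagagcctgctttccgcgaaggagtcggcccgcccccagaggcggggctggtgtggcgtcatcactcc
Ndufa10: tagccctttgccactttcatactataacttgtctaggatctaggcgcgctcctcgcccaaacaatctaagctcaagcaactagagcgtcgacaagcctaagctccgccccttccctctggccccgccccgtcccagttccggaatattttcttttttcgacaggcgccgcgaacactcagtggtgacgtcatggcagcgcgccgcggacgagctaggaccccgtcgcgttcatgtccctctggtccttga
Neither window holds the NRF1, YY1 or nuclear receptor letters searched, and that of Ndufa10 holds no ETS letters. Both hold the GC box letters, left in lower case.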

How the data were processed

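Labelling started from 400 ng of RNA, as the labels' protocols say. The authors deposited linear RMA intensity values for 34472 probe sets; the submitters' processing notes name Affymetrix Expression Console, version 1.4.1.46. RMA quantile-normalises arrays, which removes any change common to all genes. Values ran from 1.88 to 15500.2; their log2 was taken, with array medians of 5.77 to 5.89, and no detection filter was used. The number of arrays limits the precision.

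Probe sets with 1 symbol were kept, the brightest per gene, leaving 22180 genes. Knockouts and controls (5 each) entered a limma fit (limma 3.58.1, R 4.3.3; lmFit, eBayes, two-sided, Benjamini-Hochberg over all genes, threshold 0.05), tested on simulated data. An exact permutation test of 5 against 5 cannot go below p = 0.00794.

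Members and lists were chosen with earlier results of these data known. Values are given for members at an unadjusted p under 0.05, for the highest and lowest of each complex, for catalytic subunits and isoforms listed by name, and for up to 4 genes per other list, smallest p first. Further genes (Ndufa1, Ndufa8, Nrf1, Gabpa and single enteroendocrine and goblet cell markers) were added after their values were seen. Alternatives changed the scaling, filter, probe set choice, variance model, covariates and arrays. Promoters came from RefSeq (GRCm38.p6).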

Additional observations from a re-analysis of the deposited data

Results flagged for a closer look

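Each of 42 items was examined in both groups of 5 arrays, 84 groups in all, for 1 array far from the other 4 by Dixon's criterion; chance alone marks about 1 in 20 groups, and 4 were marked. The members' centred median was 0.123 on knockout 4, where the other knockouts lay between -0.031 and 0.006. Cox6b1, a complex IV subunit, stood at 9.84 on control 10, below 10.10 to 10.14 on the other controls. Cox7b, also of complex IV, stood at 10.14 on knockout 1, above 9.79 to 9.84 on the other knockouts. Cox8c, the dim testis isoform, stood at 3.74 on knockout 4, above 3.35 to 3.46.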

How the results depend on the processing

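Across 22 alternatives, 10 of which left out 1 array each, limma called 0 members; members at an unadjusted p under 0.05 numbered 3 (cell cycle score as covariate) to 7, and members higher in the knockouts 38 to 53. The members' median was 0.077 after median centring and 0.012 after further quantile normalisation, and it changed sign only without knockout 4 and control 10, at -0.013. The complex I median ran from -0.060 to 0.036 and complex II from -0.040 to 0.115, so neither has a settled sign. Complexes III, IV and V stayed above 0. The alternatives reuse the same arrays, so they cannot settle the sign of these complexes either. With Ndufa4 and Ndufa4l2 counted in complex I, the medians were -0.020 for complex I and 0.066 for complex IV. Of all genes, 6 were called as deposited, 2 after median centring, 2 after quantile normalisation, 2 without the 3 arrays highest in smooth muscle, 3 without knockout 4 and control 10, 1 with the cell cycle score and 216 with the Paneth score as covariate; the cause was not tested. With single arrays left out the count ran from 2 to 452, the highest without knockout 2. Leaving out Atp5s and Atp5sl was not run because neither symbol is among the members. No paired analysis was possible because knockouts are numbered 1 to 5 and controls 6 to 10, with no shared number.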
